A study of Mus musculus with 4 samples.

Results

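The genes described here encode the modifiers ISG15 and FAT10 and the enzymes that act on ISG15. Isg15 and Ubd (which encodes FAT10) are the modifier genes. Uba7 encodes the activating enzyme (E1), Ube2l6 the conjugating enzyme (E2), Herc6 the ligase (E3) and Usp18 the ISG15 protease. All were chosen by name, and the probes whose RefSeq accession belongs to each gene were taken. This gave 8 probes for 6 of the 20140 genes named on the array (26575 of 39419 probes). Isg15 and Herc6 each had a second probe. The probe with the highest mean log2 signal over the 4 arrays is called the main probe of a gene, and values are of it unless the other probe is named. RNA was hybridised to 4 single-colour mouse expression arrays of 1 slide, with 1 array for each of AB1-HA cells with vehicle, AB1-HA cells with interferon gamma (IFN-γ), LLC cells with vehicle and LLC cells with IFN-γ, all after 24 h. AB1-HA cells are BALB/c mouse mesothelioma cells made to carry an influenza antigen, hemagglutinin. LLC cells (3LL in some labels) come from the Lewis lung carcinoma of C57BL6 mice. No IFN-γ dose was found in the labels.

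ISG15 is an interferon-induced protein built of a tandem pair of ubiquitin-like domains. UBA7 activates it, UBE2L6 carries it, a HERC-type ligase (HERC6 in the mouse) attaches it to newly made proteins, and USP18 takes it off again. USP18 has a second role, apart from its protease activity, as a brake on type I interferon receptor signalling. FAT10 is another modifier with a pair of ubiquitin-like domains, made in response to IFN-γ and tumor necrosis factor, and it sends the proteins it is attached to directly to the proteasome. FAT10 uses a separate set of enzymes, UBA6 as E1 and UBE2Z as E2.

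With 1 array a group there was no spread between replicates, so the values below carry no test. Differences are on the log2 scale after each array was scaled to its 75th percentile, and a gene was called higher or lower at 2-fold, a threshold of size. The value after ± is the error that the scanner software's error model assigns to a spot (about 10% of a bright signal, which makes 0.20 for a log2 difference of bright spots). It covers the reading of the spot and neither culture nor labelling. On each array 57.5% to 58.2% of the probes were well above background, the 75th percentile lay between 1380 and 1598 intensity units, and no gene spot was saturated. In RNA from a whole culture, more cells with a transcript and more transcript per cell cannot be told apart. Among the markers of the labelled tissues, Msln, the mesothelial surface antigen, had signals of 50299 and 38827 in AB1-HA (vehicle, IFN-γ) and 154 and 50.1 in LLC, but Wt1, Calb2, Upk3b, Upk1b and Lrrn4 were not well above background on any array. The keratin genes Krt8 and Krt18, also in that list, were far brighter in LLC (Krt18 at 134098 and 92310) than in AB1-HA (239 and 85.9). Pdpn and Krt19, of the same list, were brighter in AB1-HA, as Msln was. Pdpn had signals of 8991 and 9458 there, against 6.48 (a spot too dim to count) and 9.44 for LLC. Krt19 had 3249 and 2282, against 1167 and 603 for LLC. Lung epithelial markers were near background on all 4 arrays (summed signal 53.7 to 75.5 over 10 genes), and Nkx2-1, Epcam, Cdh1, Sftpa1, Sftpb and Sftpc were not well above it on any. Of 9 leukocyte markers measured, 3 in AB1-HA and 4 in LLC were well above background, with summed signals of 4269 and 4594 in AB1-HA and 4030 and 4346 in LLC (vehicle, IFN-γ), while Ptprc, Cd79a, Adgre1 and Lyz2 were not well above it on any array. With IFN-γ, Csf1r, a macrophage receptor gene, was higher in LLC by its main probe (183 and 537, 1.74) but within 2-fold by another probe (0.28). Msln was lower in LLC (−1.43), and Krt18 (−1.52) and Krt8 (at least 6.49-fold) were lower in AB1-HA. What part these had in the results was not tested.

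The bases before the start of each gene are shown for the modifier genes and the E1 gene, since these held the interferon-type letters searched for. They were taken from RefSeq on build GRCm38.p6, where 5 of the 6 genes were matched. The array's own annotation is of an older build (mm9) and no array coordinate is used. Capitals mark every match, on either strand, to the interferon-stimulated response element (GAAA, 2 bases of any kind, GAAA), to the shorter core AANNGAAA read by interferon regulatory factors, which every match to the response element also contains, and to an NF-κB element (GGG, 2 bases of any kind, TTTCC). The interferon-gamma activated site TTCNNNGAA was searched too. The sequences lie at chr4:156200819-156201068 (minus strand, Isg15), chr9:107975317-107975566 (plus strand, Uba7) and chr17:37193642-37193891 (plus strand, Ubd), each 250 bases long and ending at the base before the gene's start.
Isg15: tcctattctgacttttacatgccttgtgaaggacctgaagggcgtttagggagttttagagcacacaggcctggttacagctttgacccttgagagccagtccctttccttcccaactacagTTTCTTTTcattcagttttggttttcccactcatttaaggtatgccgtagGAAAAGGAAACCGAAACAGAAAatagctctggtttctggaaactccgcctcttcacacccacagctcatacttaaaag
Uba7: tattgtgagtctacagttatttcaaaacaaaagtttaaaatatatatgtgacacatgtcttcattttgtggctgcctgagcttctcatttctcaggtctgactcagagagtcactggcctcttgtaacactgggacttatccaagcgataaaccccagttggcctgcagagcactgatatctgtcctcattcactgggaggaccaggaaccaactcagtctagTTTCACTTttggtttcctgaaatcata
Ubd: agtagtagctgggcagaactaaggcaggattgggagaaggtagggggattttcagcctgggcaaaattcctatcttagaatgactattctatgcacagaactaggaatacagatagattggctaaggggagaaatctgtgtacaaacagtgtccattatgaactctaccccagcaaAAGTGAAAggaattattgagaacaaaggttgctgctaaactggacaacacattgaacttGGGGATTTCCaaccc
The Isg15 window held 3 overlapping matches to the response element that run from 78 to 57 bases before the start, and a separate match to the core from 128 bases before it. Uba7 held 1 match to the core, from 27 bases before the start on the opposite strand. Ubd held 1 match to the core (AAGTGAAA), from 74 bases before the start, and 1 to the NF-κB element (GGGGATTTCC), from 15 bases before it. No window of the 5 held TTCNNNGAA, and those of Ube2l6 (chr2:84798578-84798827) and Herc6 (chr6:57580742-57580991), both on the plus strand, held none of the 4 letter patterns. Of all 32851 RefSeq windows of 300 bases (250 before and 50 after a start), 3.44% held the response element, 23.9% AANNGAAA, 8.3% TTCNNNGAA and 1.63% the NF-κB element. The core and the NF-κB element were chosen after the sequences had been seen, and a match describes letters and not a site in use.

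Every member was higher on the IFN-γ array in both lines. In AB1-HA, 6 of 6 were at least 2-fold higher, where 2.98% of 13208 genes with a value were higher and 1.17% lower. In LLC 6 of 6 were, where 3.68% of 13411 were higher and 1.46% lower. Among the 5 members measured on all 4 arrays, the IFN-γ differences ran from 2.49 to 4.89 in AB1-HA (median 3.89) and from 1.86 to 5.08 in LLC (median 4.31). All genes with a value had medians of −0.08 and −0.06. In each line these 5 were among the 158 genes with the largest gains of those measured on both arrays (12700 in AB1-HA and 12884 in LLC).

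**Figure D1:**
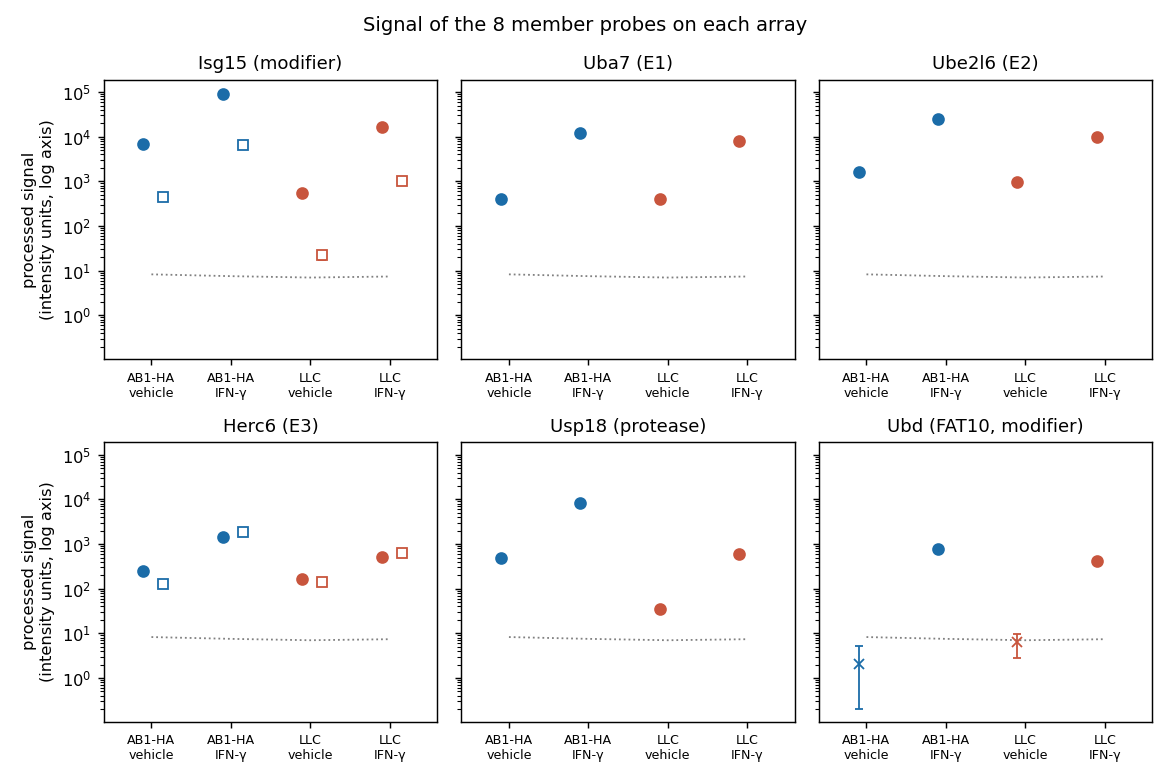
Processed signal (intensity units, log axis) of the 8 member probes on the 4 arrays, AB1-HA in blue and LLC in red. Filled circles are the main probe of a gene, open squares the other probe and crosses spots not well above background. Bars are the scanner error, often smaller than the symbol and for Ubd in AB1-HA vehicle cut off at the lower end, and the dotted line is the dimmest signal among probes above background. Every probe is higher with IFN-γ than with vehicle in its own line, and the Isg15 and Usp18 probes are lower in LLC than in AB1-HA under both conditions.

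Isg15, the modifier itself, had signals of 6921 ± 692 with vehicle and 89272 ± 8927 with IFN-γ in AB1-HA, and of 561 ± 56.1 and 16620 ± 1662 in LLC. The LLC array with IFN-γ was thus above the AB1-HA array with vehicle, and the LLC array with vehicle was the lowest of the 4. The gain was 12.5-fold in AB1-HA (3.65 ± 0.20) and 33.8-fold in LLC (5.08 ± 0.20). The second Isg15 probe read 441, 6686, 21.9 and 1029 on the same arrays, with gains of 3.88 ± 0.20 and 5.74 ± 0.34, so both probes put the larger gain in LLC.

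Uba7, the E1 that activates ISG15, read 400 ± 40.0 with vehicle and 12167 ± 1217 with IFN-γ in AB1-HA, and 410 ± 41.0 and 7914 ± 791 in LLC. The vehicle arrays of the lines were within the scanner error of each other and the IFN-γ arrays were both far above them. Its gain of 29.6-fold (4.89 ± 0.20) was the largest in AB1-HA among the members measured on both arrays, ranking 29 of 12700 genes. In LLC it was 22-fold (4.46 ± 0.20), ranking 35 of 12884.

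Ube2l6, the E2 that carries ISG15 from UBA7 to the ligase, read 1658 ± 166 and 25199 ± 2520 in AB1-HA (vehicle, IFN-γ) and 970 ± 97.0 and 9890 ± 989 in LLC. Both IFN-γ arrays lay above both vehicle arrays. The gains were 14.8-fold in AB1-HA (3.89 ± 0.20) and 11.6-fold in LLC (3.54 ± 0.20).

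Herc6, the ligase, had the smallest gain of the members in both lines. Its main probe read 246 ± 24.7 and 1424 ± 142 in AB1-HA and 164 ± 16.5 and 522 ± 52.3 in LLC, which is 5.63-fold (2.49 ± 0.20) and 3.63-fold (1.86 ± 0.20). The other probe read 130 ± 13.1, 1852 ± 185, 141 ± 14.3 and 628 ± 62.8 in the same order of arrays, with gains of 3.80 ± 0.21 and 2.34 ± 0.20. It was the dimmer of the pair with vehicle and the brighter with IFN-γ in both lines. The probes differed by 2 or more scanner errors in AB1-HA, so the size of the AB1-HA gain depends on the probe. In LLC both probes stayed below the 3.54 of Ube2l6, the next member up. By the other probe the AB1-HA gain was close to those of Ube2l6 and Isg15, so its last place there was clear of the scanner error by the main probe only.

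Usp18, the protease that removes ISG15, read 497 ± 49.8 and 8295 ± 829 in AB1-HA and 35.3 ± 3.88 and 612 ± 61.3 in LLC. The LLC array with IFN-γ was near the level of the AB1-HA array with vehicle. The gains were 16.2-fold in AB1-HA (4.02 ± 0.20) and 19.8-fold in LLC (4.31 ± 0.21). The LLC gain starts from a dim spot, and with normexp background correction, which lifts dim signals, it was 2.64.

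Ubd, which encodes FAT10, was not well above background on either vehicle array (processed signals 2.02 ± 3.24 in AB1-HA and 6.31 ± 3.53 in LLC) and read 794 ± 79.4 and 413 ± 41.4 with IFN-γ. Since the vehicle level is only bounded, the gain is a bound set against the dimmest probe that was well above background on the vehicle array (8.26 and 7.01): at least 93.5-fold in AB1-HA and at least 67.3-fold in LLC. Under normexp correction the background filter still applied, so the Ubd values, 3.17 for AB1-HA and 2.55 for LLC (log2), were again lower bounds. These bounds lay above the gains of Herc6 only, and a lower bound cannot place Ubd below the other members. Whether Ubd stands above all the ISG15 genes thus depends on how dim spots are treated.

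**Figure D2:**
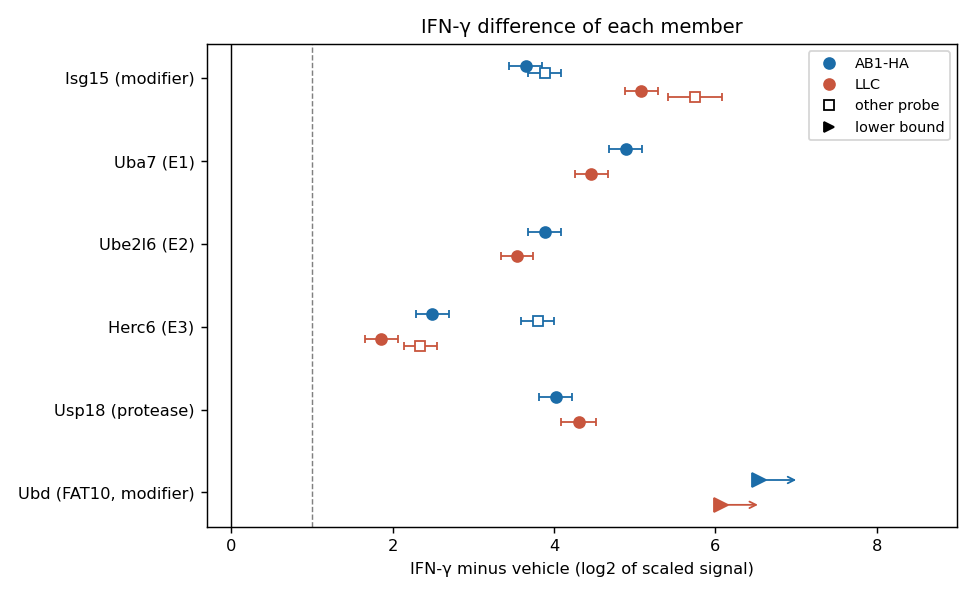
IFN-γ minus vehicle (log2 of scaled signal) of each member in AB1-HA (blue) and LLC (red), with the scanner error as bars. Filled circles are the main probe, open squares the other probe of Isg15 and Herc6, triangles with arrows the lower bounds of Ubd, and the dashed line is 2-fold. All points lie to the right of 2-fold, from 1.86 for Herc6 in LLC to bounds of 6.55 and 6.07 for Ubd.

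Set in order within AB1-HA, the E1 came first, 0.87 ± 0.29 above the protease. Protease, E2 and Isg15 followed each other by gaps of 0.13 ± 0.29 and 0.24 ± 0.29, which are within the scanner error, and Herc6 came 1.16 ± 0.29 below Isg15. Within LLC the modifier Isg15 came first, 0.62 ± 0.29 above Uba7. Uba7 and Usp18 were 0.15 ± 0.30 apart, and Ube2l6 and then Herc6 came 0.77 ± 0.30 and 1.68 ± 0.29 lower. Uba7 in AB1-HA and Isg15 in LLC were at the top, and Herc6 at the bottom, of the 5 ISG15 genes under all 11 alternatives. In AB1-HA that was not so when the other Herc6 probe was set against the main Isg15 probe (3.80 against 3.65). Array median scaling moves all genes of an array alike, so it could not change the order. The background filter, outlier and saturated-spot settings and the authors' table left the gap from highest to lowest as it was. The order was thus tried only by quantile and loess scaling, normexp correction, the mean over probes and the other probes. It is an order of probe differences and not of transcript numbers.

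**Figure D3:**
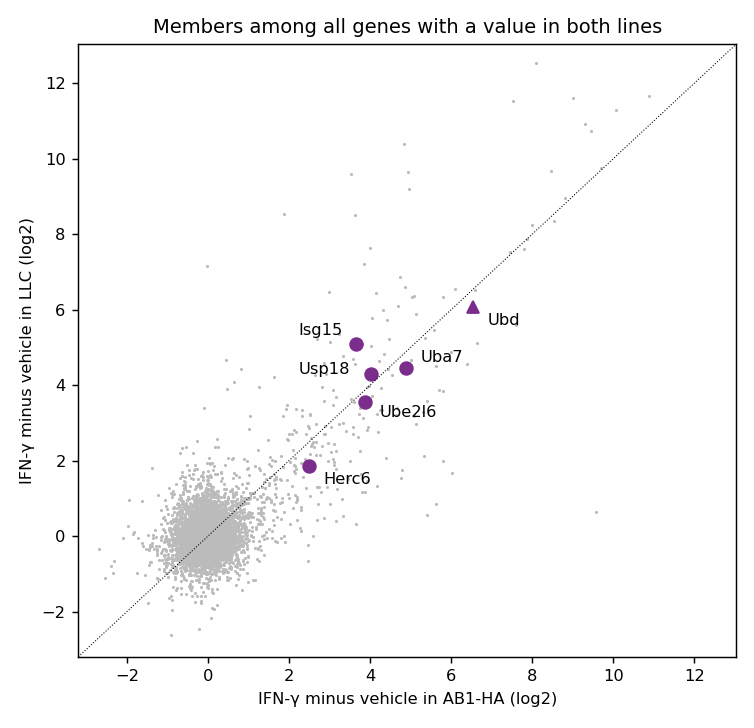
IFN-γ minus vehicle (log2) in AB1-HA on the x axis against LLC on the y axis for every gene with a value in both comparisons (grey points, bounds included) with the 6 members in purple. Ubd is a triangle since both of its values are lower bounds, and the dotted line marks equal differences. The members lie far from the bulk of genes around 0 and near the diagonal, with Isg15 above it (3.65 and 5.08) and Herc6 below it (2.49 and 1.86).

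The lines were then compared with each other. With vehicle, Isg15 and Usp18 were far lower in LLC than in AB1-HA, while Uba7 differed little. Isg15 was 14.3-fold lower in LLC (−3.84 ± 0.20, and −4.54 ± 0.34 by its other probe) and Usp18 16.3-fold lower (−4.03 ± 0.21). The Usp18 value rests on the dim LLC spot and was −2.47 under normexp correction. Ube2l6 (−0.99 ± 0.20), Herc6 (−0.79 ± 0.20, and −0.09 ± 0.21 by its other probe) and Uba7 (−0.17 ± 0.20) stayed within 2-fold. Thus 2 of the 5 members with a value were at least 2-fold lower in LLC and none was higher, where 16% of 13836 genes were lower and 16.4% higher. Ubd had no value here, since both arrays were below background.

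With IFN-γ, all 6 members were on the lower side in LLC, 4 of them by at least 2-fold, where 13.3% of 13893 genes were at least 2-fold lower and 15.4% higher. Usp18 was 13.4-fold lower (−3.74 ± 0.20), Isg15 5.30-fold (−2.41 ± 0.20), Herc6 2.69-fold (−1.43 ± 0.20) and Ube2l6 2.51-fold (−1.33 ± 0.20). Ubd (−0.92 ± 0.20) and Uba7 (−0.60 ± 0.20) stayed within 2-fold, and Ubd was just past it at −1.05 when arrays were scaled to their medians. A lower level in LLC was common among shared IFN-γ genes: of 172 genes at least 2-fold higher with IFN-γ in both lines and measured on all arrays, members included, 34.9% (60 genes) were at least 2-fold lower in LLC with vehicle and 36.6% (63 genes) with IFN-γ, while 25 and 19 were at least 2-fold higher.

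**Figure D4:**
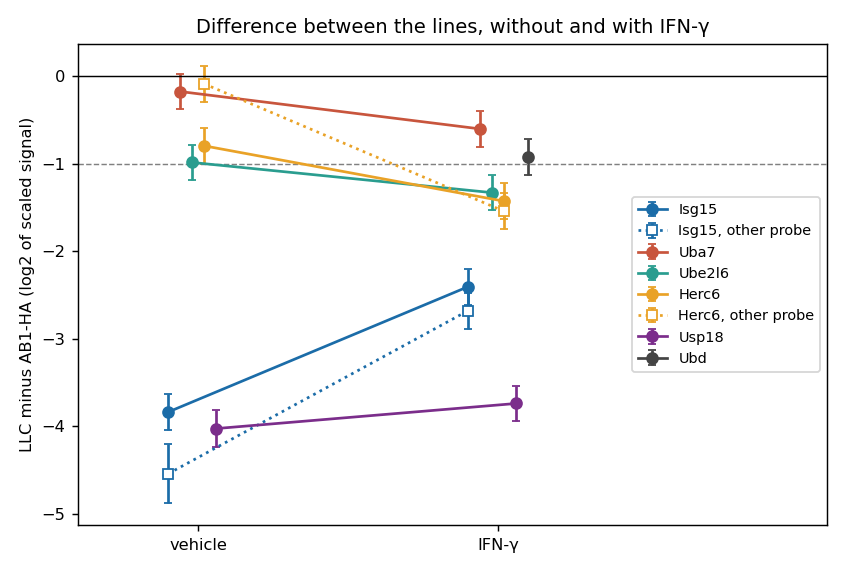
LLC minus AB1-HA (log2 of scaled signal) for each member with vehicle and with IFN-γ, with the scanner error as bars and the dashed line at 2-fold lower. Solid lines join the main probe of a gene and dotted lines the other probe, and Ubd has a value with IFN-γ only. Usp18 lies at −4.03 and −3.74 (−2.47 and −3.58 under normexp correction, not drawn), and Isg15 at −3.84 and −2.41.

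The difference between the lines' IFN-γ effects, which is also the change in the gap between the lines, was past 2-fold for Isg15 alone among the 5 members measured on all arrays by their main probes. It was 1.43 ± 0.29 toward LLC (1.86 ± 0.39 by the other probe), where 2.54% of 11985 genes were at least 2-fold toward LLC. Usp18 stood at 0.29 ± 0.30, a value within its error whose sign turned under normexp correction (−1.11). Ube2l6 (−0.34 ± 0.29), Uba7 (−0.43 ± 0.29) and Herc6 (−0.63 ± 0.29) were on the AB1-HA side by less than 2-fold. For Herc6 the other probe gave −1.46 ± 0.29, past 2-fold toward AB1-HA, where 1.69% of genes were. Isg15 and Usp18 thus shared a low LLC level with vehicle, but the gap narrowed past 2-fold for Isg15 and not for Usp18. No test of that contrast between genes can be had from single arrays.

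The genes whose profile over the 4 arrays was most like each member were found by Euclidean distance between log2 values centred per gene, among 11985 genes measured on every array, with 1 probe a gene. Nearest to Isg15 were Usp18 (distance 0.97), Csprs (1.12) and Mndal (1.16), and nearest to Usp18 were Csprs (0.78), Isg15 (0.97) and Ifit3 (1.14). Isg15 and Usp18 were the only members found among each other's 3 nearest genes. The Usp18 profile includes its dim LLC vehicle spot (35.3), and its difference between the vehicle arrays moved from −4.03 to −2.47 under normexp correction. The distances of Usp18 thus rest on how that spot is treated. Uba7 lay closest to Il18bp, the decoy that binds IL-18 (0.49), Irf1 (0.69) and Tmem140 (0.72). Ube2l6 lay closest to Trim12c (0.38), the complement gene C2 (0.52) and Bst2, which encodes the virus-tethering protein tetherin (0.60). Herc6 lay closest to the RNA editor Adar (0.33), the death receptor gene Fas (0.41) and A530032D15Rik (0.44). Csprs, A530032D15Rik, Mndal, Trim12c and Ifit3 have close copies in the mouse genome, so their probes may read more than 1 gene. Uba7 and Ube2l6 were each other's nearest member, at distance 1.23, as the gene ranked 15 from Uba7 and 29 from Ube2l6, and the nearest member to Herc6, Ube2l6, ranked 117.

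Beyond the members, the other genes of ubiquitin-like conjugation showed few IFN-γ differences of this size. Nub1, which binds FAT10 and speeds its breakdown, was the gene past 2-fold among the partner genes of ISG15 and FAT10. Its signals were 3571 and 9900 in AB1-HA and 2711 and 4694 in LLC (vehicle, IFN-γ), a difference of 1.43 in AB1-HA and 0.98 in LLC, just short of 2-fold. Both IFN-γ arrays lay above both vehicle arrays. In all, 1 of 16 partner genes with a value was higher in AB1-HA and none of 15 in LLC, with list medians of 0.03 and −0.07.

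The FAT10 enzymes stayed near 0: Uba6, the E1, was at 0.12 in AB1-HA and −0.13 in LLC, and Ube2z, the E2, at −0.06 and −0.17. Trim25, a ligase of antiviral signalling that has also been linked to ISG15, was at 0.76 and 0.53. Arih1, another ligase linked to ISG15, was at −0.05 and 0.19, and Ube2l3, the close relative of Ube2l6 that serves ubiquitin, at 0.002 and 0.30. Several of these small values turned sign under other settings (Uba6, Ube2z, Arih1 and Ube2l3), so no direction is read from them.

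Sorted by enzyme class, no other E1 (9 genes, the ubiquitin E1 Uba1 at −0.16 and −0.15), no other E2 (34 with a value), none of the other HERC genes (4), no other modifier (17, among them ubiquitin, SUMO and NEDD8 genes) and no SUMO, NEDD8, UFM1 or ATG8 protease (12 with a value) was past 2-fold in either line. The other ubiquitin-specific proteases were listed by symbol alone (Usp and a number, which takes in Usp6nl). Of 43 such genes with a value, none was past 2-fold in AB1-HA. In LLC, Usp45 was higher (signals 1534 and 2813, 1.07) and Usp29 (21.7 and 9.31, −1.03) and Usp43 (117 and 48.2, −1.08) were lower, all close to the 2-fold limit. Under normexp correction none of these 3 stayed past it, and Usp29 turned sign. The medians of these lists lay between −0.20 and 0.09, close to the medians of all genes.

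**Figure D5:**
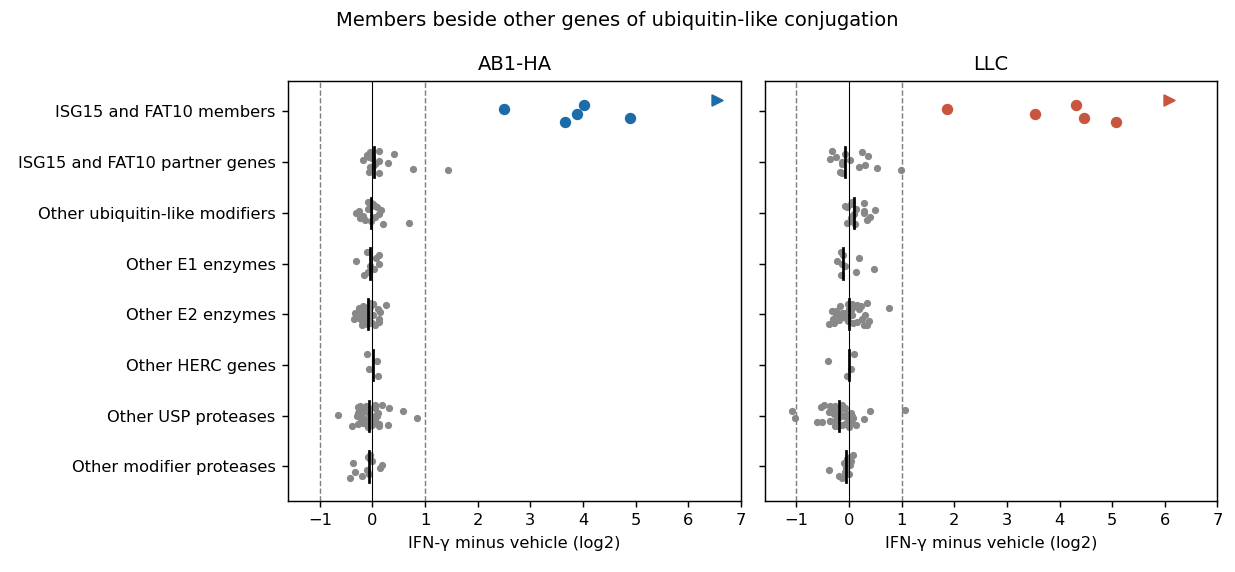
IFN-γ minus vehicle (log2) in AB1-HA (left) and LLC (right) for the 6 members (coloured, with triangles for the lower bounds of Ubd) and for the genes of 7 lists of ubiquitin-like conjugation (grey points, each a gene, with the list median as a black bar). Dashed lines mark 2-fold in either direction. The members lie between 1.86 and 6.55, while the other lists centre near 0, with Nub1 (1.43) past 2-fold in AB1-HA and Usp45, Usp29 and Usp43 just past it in LLC.

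Upstream of these genes, 3 of 9 genes of the interferon receptors and their transcription factors were at least 2-fold higher in each line: Irf1 (4.44 in AB1-HA and 4.43 in LLC, and 3.23 and 1.71 by its other probe), Stat2 (3.82 and 3.13) and Irf9 (2.53 and 3.23). Stat2 and Irf9 form part of the factor that binds the response element searched for above, and Stat2 also anchors USP18 at the type I interferon receptor. Stat2 read 1003 and 14518 in AB1-HA and 1349 and 10361 in LLC (vehicle, IFN-γ), and Irf9 1990 and 11809 in AB1-HA and 818 and 6724 in LLC. For Stat2 the LLC vehicle level was not below that of AB1-HA, unlike those of Isg15 and Usp18, and for Irf9 it was. The list medians were 0.03 and −0.13, since the receptor and kinase genes stayed within 2-fold.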

How the data were processed

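RNA of 4 cultures was measured on 4 Agilent mouse arrays of 1 slide. Per the labels' protocols, total RNA was labelled with Cy3, and the deposited intensity values and their errors are background-subtracted signals from Feature Extraction 10.7.1.1, per the file headers, not normalized between arrays. The authors deposited a table of log2 values. How it was made was not stated in the labels. Its columns correlated at 0.999 with log2 signals scaled to the 75th percentile and centred per probe, in the direction of the signal. The column medians were 0.11 and −0.08 (AB1-HA) and −0.13 and 0.08 (LLC).

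Control spots and outlier spots (166 to 201 per array) were left out, which left 39419 of 39429 probes, and each array was scaled to its 75th percentile. A probe counted as well above background where at least 0.5 of its spots carried the scanner's mark. Accessions were matched without versions to RefSeq symbols (GRCm38.p6, names only), and the probe of a gene with the highest mean log2 signal was used. A gene below background on 1 array got a bound, and on both no value. The members and lists were chosen with earlier results of these data known. All members are named, with the 4 largest differences past 2-fold of each list, 9 enzymes and factors whatever their values, and the 3 genes nearest each member. In place of the mean spot signals planned for normexp, median spot signals were used (offset 50). Tools were Python 3.11.15, numpy 2.4.6, pandas 2.3.3, matplotlib 3.10.9, R 4.3.3 and limma 3.58.1.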

Additional observations from a re-analysis of the deposited data

How the results depend on the processing

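The alternatives were array median, quantile and cyclic loess scaling, normexp correction, the authors' deposited table, genes measured on every array compared, no background filter, the mean over probes, outlier spots kept, saturated spots left out, and, chosen after the data were seen, the other probe of Isg15 and Herc6. All 6 members stayed at least 2-fold higher in both lines under each, except that Ubd had no value when a signal on every array was required. Some alternatives could move the members little or not at all. No gene spot was saturated, no member spot was an outlier, and changing the background filter leaves the differences of members measured on all arrays unchanged. Of 288 member values under alternatives, these included, 284 kept their direction and their side of 2-fold. The exceptions were Ubd between the IFN-γ arrays (−1.05 with array medians), Herc6 in the difference of effects (−1.04 with the mean over probes and −1.46 by its other probe) and Usp18 in it (−1.11 under normexp). The count of members past 2-fold in the difference of effects, 1 here, was 2 under normexp, without a background filter, with the mean over probes and by the other probes. Usp29 in LLC reversed to 0.67 under normexp. The causes were not tested. Array median scaling moved the median of all genes in LLC from −0.06 to −0.20, and the percentage that was higher, of genes past 2-fold, from 71.6% to 55.5% (60.5% under quantile and 55.6% under loess scaling, 92.4% under normexp). In AB1-HA that percentage was 71.9%, with 92.9% under normexp and 55.1% without a filter. Counts of all genes past 2-fold ranged from 260 to 722 higher and 20 to 588 lower in AB1-HA (394 and 154 here), and from 254 to 890 and 21 to 487 in LLC (494 and 196). No paired analysis was possible because each group held 1 array. Leaving out an array was not possible for the same reason. Signal over background limits Ubd with vehicle in both lines and Usp18 and the other Isg15 probe in LLC with vehicle (35.3 and 21.9 intensity units, where the lowest signal well above background was 7.01).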
